A study of Mus musculus with 6 samples.

Results

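Lecticans, tenascins and the receptor phosphatase Ptprz1 form much of the extracellular matrix of the brain, and 9 genes of this group were examined in mouse embryonic stem cells (ESCs) and in neural progenitor cells (NPCs) derived from them. The genes were taken by identity, as the 4 lecticans brevican (Bcan), neurocan (Ncan), versican (Vcan) and aggrecan (Acan), the 2 membrane proteoglycans Cspg5 and Ptprz1, the 2 tenascins Tnc and Tnr, and the link protein Hapln1. Of these, 8 have a row among the 17144 genes in the array values, and the expression of Tnr was not analysed here. The group was chosen by gene identity with the log2 values of these 6 arrays, and the difference between NPCs and ESCs, already known. Its values in that comparison are therefore a description, and no p-value is attached to a member.

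Lecticans are chondroitin sulfate proteoglycans that bind hyaluronan with their N-terminal end and tenascins with a lectin-like C-terminal end, so that hyaluronan, lectican and tenascin join into a network between cells. Link proteins such as Hapln1 hold the lectican on the hyaluronan chain. Ptprz1 and Cspg5 carry chondroitin sulfate on the cell membrane, and both bind tenascins. In the developing brain the network surrounds dividing glial cells and progenitors, and in the adult brain aggrecan, Hapln1 and tenascin-R are known from the perineuronal nets around mature neurons.

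RNA was hybridized to Affymetrix arrays, 1 array for each of 3 biological replicates of wild type ESCs and of wild type NPCs. The ESCs were the V6.5 line, made from a blastocyst of a 129SvJae/C57B6 F1 background and grown with serum and LIF. The NPCs came from that same line by differentiation in vitro and were grown in N3 medium, with bFGF and EGF per the methods of the study, so that both groups stand for 1 genotype and 1 parental line. The deposited values are log2 values by robust multi-array average (RMA), in which the probes of a gene are summarized after normalization between arrays. Only arrays are compared within a gene, because the signal of different probes does not give the relative amounts of different transcripts.

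As a check of the labels, Pou5f1, the pluripotency factor OCT4, stood at 12.44 ± 0.02 (SD, n = 3) in ESCs and 3.70 ± 0.11 in NPCs. The progenitor markers Nes, Fabp7 and Vim were higher in every NPC array than in any ESC array, with Nes, an intermediate filament of neural progenitors, at 7.68 ± 0.15 against 5.63 ± 0.22. Only 3 of 5 progenitor markers could be named, through tables that hold mainly rises, so that a progenitor marker that did not rise would hardly have been seen. Correlations across genes were between 0.996 and 0.998 among ESC arrays and 0.997 between NPC replicates 1 and 2, but 0.978 to 0.979 between these and NPC replicate 3. The value in NPC replicate 3 departed by more than 1 log2 unit from the mean of NPC replicates 1 and 2 at 686 genes, 4.0% of all, and values of the members are therefore also given without it. A gene was called when limma gave an adjusted p under 0.05 (Benjamini-Hochberg over all genes) and the means differed by more than 1.5-fold, which held for 34.1% of all genes, with 2638 higher and 3213 lower in NPCs. This balance turned to 3302 higher and 2642 lower when each array was centred on its median.

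Among the 8 genes, 6 were called higher in NPCs, where 15.4% of all genes were, and 1, Acan, was called lower, where 18.7% of all genes were. For the same 6 genes the lowest NPC value exceeded the highest ESC value, which held for 26.1% of all genes, and for Acan the reverse separation was seen, which held for 32.6% of all genes. Because the comparison was used in choosing the group, nothing is read from these shares. The median log2 difference of the 8 genes, NPC minus ESC, was 2.97, beside -0.036 for all genes. The order of the differences was Ptprz1, Bcan, Tnc, Ncan, Cspg5, Vcan, Hapln1 and Acan.

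**Figure D1:**
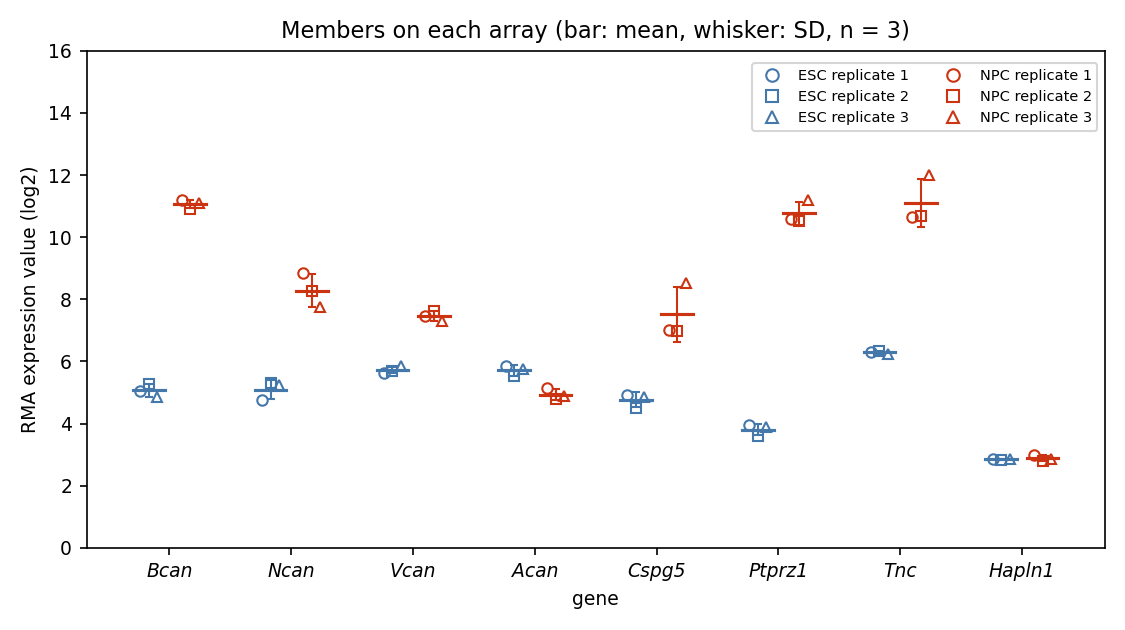
RMA expression value on a log2 axis for the 8 genes on each of the 6 arrays, with ESC arrays in blue and NPC arrays in red. Symbols stand for the replicates, bars for the means and whiskers for the SD of 3 arrays, and only Hapln1, at 2.85 and 2.89, shows overlapping groups.

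Brevican, a lectican made almost only in the nervous system, showed the second largest difference of the group. Bcan (ENSMUSG00000004892_at) read 5.05, 5.28 and 4.86 in ESC replicates 1 to 3 and 11.19, 10.91 and 11.09 in NPC replicates 1 to 3. The groups were thus separated by 5.63 log2 units between the highest ESC and the lowest NPC array. The means of 5.06 ± 0.21 (SD, n = 3) and 11.06 ± 0.14 differed by 6.0 (standard error 0.13 from limma), or 63.9-fold, the 11th largest rise among 17144 genes. Its signal moved from the 41.0 percentile of the ESC arrays to the 98.3 percentile of the NPC arrays. Without detection calls, an ESC signal below the middle of the arrays leaves the presence of the transcript unsettled, and the fold and rank are those of the signal. The NPC arrays lay within 0.27 of each other, so that NPC replicate 3 did not stand apart for this gene.

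Neurocan, a lectican of the embryonic and early postnatal brain, also rose, but less evenly. Ncan (ENSMUSG00000002341_at) read 4.74, 5.30 and 5.23 in ESCs and 8.84, 8.25 and 7.76 in NPCs. No arrays overlapped, although each NPC array differed from the next by about as much as the SD of 0.54. The difference of means was 3.19 (standard error 0.28), which is 9.13-fold, with means of 5.09 ± 0.30 and 8.28 ± 0.54 (SD, n = 3). The ESC signal lay at the 41.4 percentile, so that, as for Bcan, the presence of the transcript in ESCs is unsettled and the fold is that of the signal. NPC replicate 3 was the lowest, 0.79 below the mean of the other NPC arrays, and without it the difference was 3.45.

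Versican, the most widely distributed lectican and a matrix component of many embryonic tissues, showed the smallest of the rises. Vcan (ENSMUSG00000021614_at) read 5.63, 5.71 and 5.84 in ESCs against 7.47, 7.63 and 7.31 in NPCs. The groups were clearly apart, since the gap between them, 1.47, was several times the SD of either (0.10 in ESCs and 0.16 in NPCs, n = 3). The difference was 1.74 (standard error 0.11), or 3.34-fold. The ESC signal lay at the 49.7 percentile, so that here too the presence of the transcript in ESCs is unsettled. Versican transcripts are spliced into forms with and without the regions that carry chondroitin sulfate, and a gene-level probe set does not tell these forms apart.

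Aggrecan, best known as the lectican of cartilage, went the other way from the other lecticans. Acan (ENSMUSG00000030607_at) read 5.86, 5.52 and 5.76 in ESCs and 5.14, 4.78 and 4.87 in NPCs. Every NPC array was below every ESC array, with 0.38 between the nearest of them. The means of 5.71 ± 0.17 and 4.93 ± 0.19 (SD, n = 3) differed by -0.78 (standard error 0.13), or 1.72-fold, which would not pass a threshold of 2-fold. Both means were below the median of the arrays, at the 49.6 percentile in ESCs and the 41.4 percentile in NPCs. Detection calls were not used here, so that values this low do not set whether the transcript was present.

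Hapln1, the link protein that fastens lecticans to hyaluronan, gave a signal at the bottom of the arrays in both cell types. Hapln1 (ENSMUSG00000021613_at) read 2.85, 2.83 and 2.87 in ESCs and 2.99, 2.80 and 2.87 in NPCs. The arrays of the 2 cell types overlapped, and the difference of means was 0.04 (standard error 0.08). Its signal lay at the 3.05 percentile of the ESC arrays and the 3.69 percentile of the NPC arrays. No difference was detectable in a signal so near the bottom of the arrays.

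The lectican genes lie beside link protein genes in the mouse genome, a property that was not used to choose them. In the RefSeq gene table of assembly GRCm38.p6, no other protein-coding gene lies between Vcan and Hapln1 on chromosome 13, between Bcan and Hapln2 on chromosome 3, between Acan and Hapln3 on chromosome 7, or between Ncan and Hapln4 on chromosome 8. Of these 4 neighbouring pairs, only Vcan and Hapln1 could be compared on the arrays. Within this pair Vcan was higher in NPCs by 1.74 while Hapln1 differed by 0.04, with its values at the bottom of the arrays in both cell types. Hapln2, Hapln3 and Hapln4 could not be named on the arrays and were not analysed here.

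Ptprz1, a receptor-type tyrosine phosphatase whose ectodomain carries chondroitin sulfate, showed the largest difference of the group. Ptprz1 (ENSMUSG00000068748_at) read 3.95, 3.59 and 3.87 in ESCs and 10.60, 10.51 and 11.19 in NPCs. The lowest NPC array was 6.56 above the highest ESC array, and replicate 3 was the highest of the NPC arrays. The means of 3.81 ± 0.19 and 10.77 ± 0.37 (SD, n = 3) differed by 6.96 (standard error 0.19), or 125-fold, and by 6.75 without NPC replicate 3. In percentile of the array the signal went from 21.2 to 97.6. The fold is one of array signal, since the ESC value is low enough that, without detection calls, it does not set whether any transcript was present there. A secreted form of the ectodomain, known as phosphacan, is made from the same gene and was not separated from the receptor here.

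Cspg5, also called neuroglycan C, is a transmembrane proteoglycan of the nervous system with an EGF-like module. Cspg5 (ENSMUSG00000032482_at) read 4.93, 4.49 and 4.86 in ESCs and 7.02, 6.99 and 8.54 in NPCs. NPC replicates 1 and 2 lay 0.02 apart, taken before rounding, and replicate 3 was 1.54 above their mean, so that the NPC mean of 7.52 ± 0.89 (SD, n = 3) lies where no single array does. The difference from the ESC mean of 4.76 ± 0.24 was 2.75 (standard error 0.41), or 6.75-fold, and 2.24 without NPC replicate 3. The ESC signal lay at the 37.0 percentile, which leaves the presence of the transcript in ESCs unsettled, and the fold is that of the signal. All NPC arrays stayed above all ESC arrays, by 2.06 at the nearest.

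Tenascin-C, a multimodular glycoprotein of germinal zones that binds lecticans and Ptprz1 in the matrix, was among the largest rises of the group. Tnc (ENSMUSG00000028364_at) read 6.30, 6.34 and 6.24 in ESCs and 10.64, 10.69 and 11.99 in NPCs. As for Cspg5, NPC replicates 1 and 2 lay close together, 0.04 apart, and replicate 3 was above them, here by 1.33. The means of 6.29 ± 0.05 and 11.11 ± 0.77 (SD, n = 3) differed by 4.81 (standard error 0.34), or 28.1-fold. Without NPC replicate 3 the difference was 4.37.

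**Figure D2:**
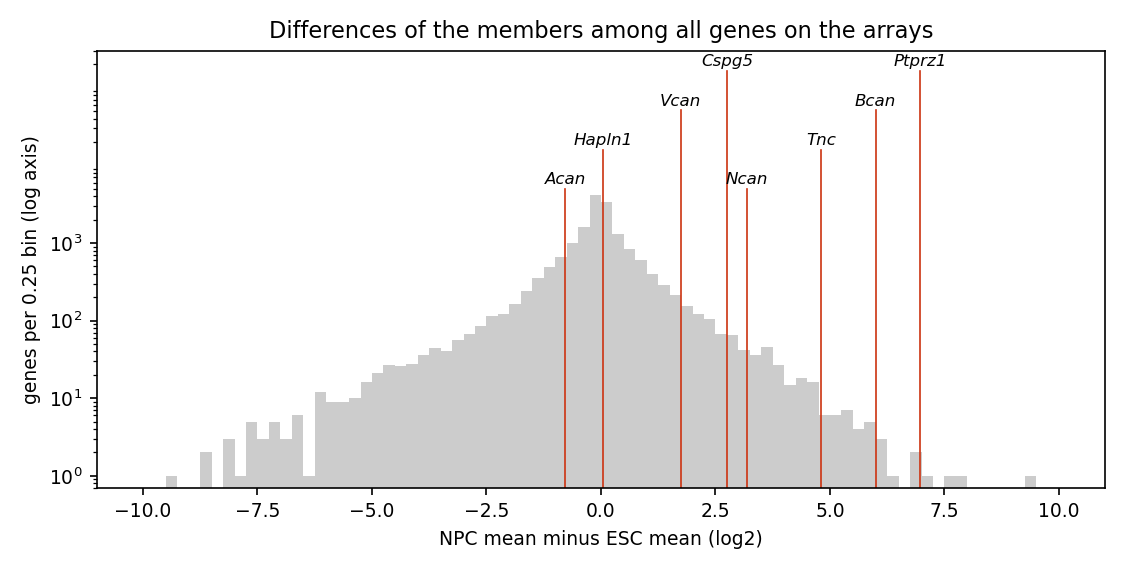
Number of genes, on a log axis, by the difference between the NPC mean and the ESC mean in log2 units for all 17144 genes (grey, bins of 0.25), with red lines at the 8 genes. Ptprz1 at 6.96, Bcan at 6.0 and Tnc at 4.81 lie in the sparse right tail, and Hapln1 at 0.04 and Acan at -0.78 lie in the body of the distribution.

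Promoter sequences were compared because the study is concerned with SOX2 and POU factors, and 3 windows are shown. Tnc holds 2 copies of the POU-type letters, Hapln1 holds 1, and Ptprz1 holds none of the letters searched. Their differences between NPCs and ESCs were 4.81, 0.04 and 6.96, with Hapln1 at the bottom of the arrays. Whether the letters bear on these differences was not tested. In NPCs the study found BRN2 at a minority of SOX2-bound promoters and with SOX2 at many distal enhancers. Such enhancers lie outside these windows. The windows are RefSeq promoters of build GRCm38.p6, reduced to the 250 bases before the annotated start and written 5′ to 3′ on the strand of the gene. They lie at chr4:64047016-64047265 (minus strand) for Tnc, at chr13:89540386-89540635 (plus strand) for Hapln1 and at chr6:22875252-22875501 (plus strand) for Ptprz1. Capitals mark ATGCAAA, the octamer site of POU factors without its last base, on either strand.
Tnc: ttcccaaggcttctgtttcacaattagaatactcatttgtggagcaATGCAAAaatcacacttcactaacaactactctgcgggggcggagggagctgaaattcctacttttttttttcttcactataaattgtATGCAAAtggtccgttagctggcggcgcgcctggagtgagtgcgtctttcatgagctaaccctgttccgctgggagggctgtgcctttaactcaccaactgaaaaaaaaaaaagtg
Hapln1: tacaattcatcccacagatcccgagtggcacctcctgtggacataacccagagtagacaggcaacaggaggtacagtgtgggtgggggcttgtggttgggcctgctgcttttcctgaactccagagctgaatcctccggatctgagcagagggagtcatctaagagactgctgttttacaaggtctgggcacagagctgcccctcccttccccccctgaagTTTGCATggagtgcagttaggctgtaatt
Ptprz1: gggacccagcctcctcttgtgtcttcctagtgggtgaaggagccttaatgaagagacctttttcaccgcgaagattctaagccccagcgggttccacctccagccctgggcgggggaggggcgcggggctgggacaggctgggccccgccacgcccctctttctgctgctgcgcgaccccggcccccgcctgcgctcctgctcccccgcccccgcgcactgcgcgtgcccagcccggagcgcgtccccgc

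Over the full windows of 300 bases, 50 of them past the start, a RefSeq promoter was at hand for 8 of the 9 genes, with Cspg5 not among them and Tnc having 2 overlapping windows. ATGCAAA, searched on both strands, was found in Tnc and Hapln1, against 4.63% of all 32851 windows. In Tnc it stood at -204 to -198 and at -116 to -110 from the start of the window shown, and the downstream copy goes on into the complete octamer. In Hapln1 it lay on the reverse strand at -29 to -23. ACAAAG, the core of the SOX site, was found on either strand only in Tnr among these genes, against 18.7% of all windows. TTGGCA, 1 side of the NF-I site, occurred in Ncan and in the downstream window of Tnc, against 14.1% of all windows. The searched letters did not overlap each other within these windows. A match in so short a window is a description of the letters and sets nothing about binding, and which start the cells use was not measured.

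The windows of the 8 genes differed in base composition. GC content was 74.0% in Acan, 71.7% in Ptprz1, 64.0% in Bcan, 61.0% in Vcan, 56.7% in Ncan and 54.3% in Hapln1, beside a median of 52.7% over all windows. Tnr had 48.0% and Tnc 47.3% and 54.0% in its 2 windows. CpG dinucleotides numbered 31 in Acan, 29 in Ptprz1 and 24 in Bcan, and 3 in Hapln1 and Tnr, against a median of 7. Whether base composition bears on the differences between the cell types was not tested.

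The position of replicate 3 among the NPC arrays differed between the members. Any of 3 arrays is highest, lowest or between, so nothing is read from the order alone. Cspg5, Tnc and Ptprz1 were highest there, by 1.54, 1.33 and 0.64 log2 units over the mean of NPC replicates 1 and 2. Ncan and Vcan were lowest there, by -0.79 and -0.24. Bcan, Acan and Hapln1 lay between the other arrays, with departures of 0.04, -0.09 and -0.03. A departure as large as that of Cspg5, in either direction, was exceeded by 1.46% of all genes and that of Tnc by 2.12%. That of Ncan was exceeded by 6.39% and that of Ptprz1 by 9.87%. Those of Vcan, Acan, Bcan and Hapln1 were unremarkable, exceeded by 37.8%, 71.5%, 86.9% and 89.6%. NPC replicates 1 and 2 differed by at most 0.58, for Ncan. A single array against the others allows no test, and the labels, which title it NP39 beside NP106 and NP107, name no condition that sets it apart.

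**Figure D3:**
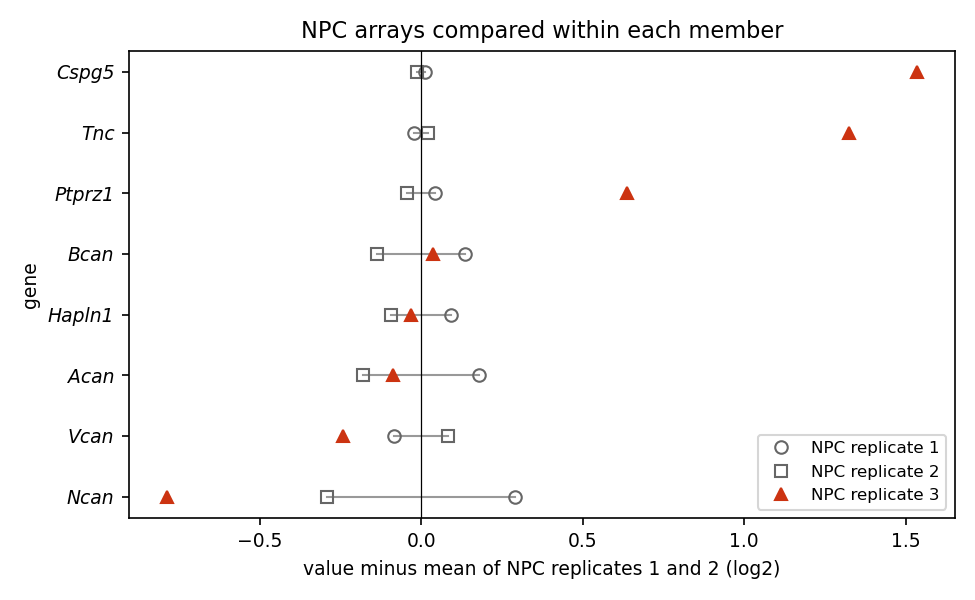
Value of each NPC array minus the mean of NPC replicates 1 and 2, in log2 units, for the 8 genes ordered by replicate 3 (filled triangles). Cspg5 (1.54), Tnc (1.33) and Ptprz1 (0.64) lie to the right in replicate 3 and Ncan (-0.79) lies to the left. The other arrays (open symbols) lie evenly about 0 by construction, at most 0.58 apart, for Ncan.

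The named markers of other cell types went in different directions in NPC replicate 3. Of the astrocyte list, 2 of 5 genes could be named, the glutamate transporter gene Slc1a3 and S100b, and they were 1.1 and 0.80 higher in NPC replicate 3 than in the mean of the other NPC arrays. Slc1a3 stood at 5.41 ± 0.17 in ESCs and 9.06 ± 0.64 in NPCs (SD, n = 3), and S100b at 3.98 ± 0.03 and 6.49 ± 0.47. Of the oligodendrocyte lineage list 2 of 5 could be named, Olig1 and Olig2, with departures of -0.22 and 0.65 in replicate 3. Olig1 stood at 9.22 ± 0.04 in ESCs and 13.14 ± 0.13 in NPCs, and Olig2 at 7.43 ± 0.02 and 11.24 ± 0.38. Of the neuron list only Dcx, a microtubule protein of young neurons, could be named of 4, and it departed by -1.20 in replicate 3, with 4.86, 5.06 and 3.76 in NPC replicates 1 to 3 and an ESC mean of 3.49. No gene of the fibroblast list could be named. The part of such cells in the values of Cspg5, Tnc, Ptprz1 and Ncan was not tested, and in bulk RNA more cells of a type and more RNA per cell cannot be told apart.

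Genes that act with these matrix proteins were taken from 6 lists, of which 26 of 76 genes could be named. Names came from the rows of the study's tables that were at hand, nearly all of which are rises in NPCs, so falls and unchanged genes are mostly without a name and no list reached the 80% needed for a count of calls. The values below are therefore a description of named genes only. Several start from a low ESC signal, at the 3.62 percentile for Itgb8, 21.4 for Cntn1, 21.8 for Csgalnact1 and 28.5 for Egfr. As for the members, presence of such transcripts in ESCs is unsettled without detection calls. Differences are NPC minus ESC on the log2 scale, as above.

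Among genes for chondroitin sulfate synthesis, 5 of 21 were named. Chst7, a sulfotransferase, showed the largest difference, 5.29, from 4.58 ± 0.47 in ESCs to 9.87 ± 0.09 in NPCs (SD, n = 3). Csgalnact1, which starts the chondroitin chain, read 3.84 ± 0.22 and 7.14 ± 0.24, Chst11, which sulfates it, 4.47 ± 0.06 and 6.79 ± 0.21, and Chsy1, a chondroitin synthase, 8.73 ± 0.18 and 10.51 ± 0.35. B3galt6, an enzyme of the linker that joins chains to core proteins, differed by 1.17. Of the hyaluronan list only Cd44, a hyaluronan receptor, was named of 10, with a difference of 3.36. Tnfaip6, a hyaluronan-binding protein and the single named gene of 8 other matrix partners, differed by 3.85.

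Proteases that cut lecticans were named for 4 of 7 genes with their inhibitor. Adamts1 stood at 4.68 ± 0.08 in ESCs and 6.96 ± 0.04 in NPCs, and Adamts4 at 4.55 ± 0.11 and 6.47 ± 0.34 (SD, n = 3). Every NPC array was above every ESC array for these 2 and for Adamts9, where the gap was 1.13, but not for Adamts20. Adamts9 read 9.65, 9.84 and 7.26 in NPC replicates 1 to 3 against an ESC mean of 6.09, and Adamts20 4.66, 4.28 and 3.02 against 2.98. In replicate 3 these 2 proteases were thus 2.48 and 1.45 below the mean of the other NPC arrays. For Adamts20, replicate 3 lay within the range of the ESC arrays, whose signal was at the 5.06 percentile, near the bottom. Without detection calls, values this low do not set whether the transcript was present.

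Of the receptors, cell surface partners and ligands, 11 of 18 were named. Pleiotrophin (Ptn), a secreted ligand of Ptprz1, read 5.18, 5.25 and 5.01 in ESCs and 9.19, 8.97 and 10.31 in NPCs, a difference of 4.35 with replicate 3 highest, as for Ptprz1 itself. Contactin-1 (Cntn1), a neuronal adhesion protein that binds Ptprz1, read 3.94, 3.83 and 3.69 against 6.05, 6.04 and 6.80. Egfr differed by 4.35 and Itgb8, an integrin subunit, by 5.10, also with replicate 3 highest, by 0.73 and 0.88 over the other NPC arrays. Itga9, the integrin subunit that pairs with Itgb1 to bind tenascin-C, read 7.83 and 7.93 in NPC replicates 1 and 2 but 5.67 in replicate 3, against 4.78 ± 0.09 in ESCs (SD, n = 3). In replicate 3 Tnc was thus at its highest where Itga9 was at its lowest among the NPC arrays.

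The other named receptors and adhesion genes differed by less. Ptprd and Rtn4rl1, which belong to families of chondroitin sulfate receptors, differed by 1.37 and 1.03, and Nrcam and Ncam1, adhesion molecules that bind lecticans, by 1.85 and 2.05. Itgav and Itgb1 differed by 1.01 and 1.03. Of 12 other proteoglycans, 4 were named, the syndecan Sdc3 and the glypicans Gpc1, Gpc2 and Gpc6, with differences of 2.21, 1.25, 1.42 and 1.51. Over the 26 named genes of the 6 lists, replicate 3 was the highest NPC array for 12 and the lowest for 14.

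**Figure D4:**
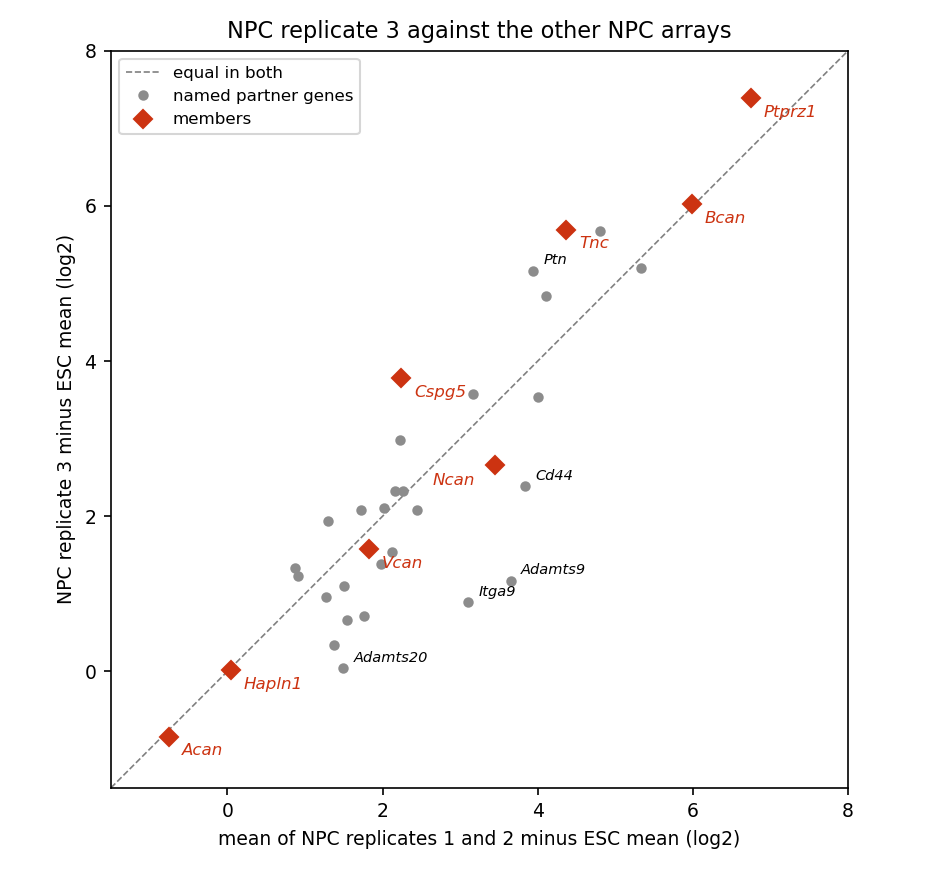
Rise over the ESC mean in NPC replicate 3 (vertical axis) against the mean of NPC replicates 1 and 2 (horizontal axis), both in log2 units, for the 8 genes (red) and 26 named partner genes (grey), with the dashed line where both are equal. Tnc, Cspg5 and Ptn lie above the line, and Adamts9, Itga9, Cd44 and Adamts20 lie below it.

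For each member the named genes with the most similar pattern were sought, by the Euclidean distance over the 6 arrays after subtraction of the gene's own ESC mean. For the 6 rising genes the closest of all 17144 genes had a name. Among the closest were Gpm6a (distance 0.55) and Nptx1 (0.67) for Ptprz1, Slc25a18 (0.47) for Bcan, and Ccnd2 (0.32) and Neto1 (0.46) for Tnc. For Cspg5 they were Pde4b (0.38) and Lxn (0.39), with departures of 1.4 and 1.45 in NPC replicate 3. Replicate 3 was part of the distance, so that this likeness follows from the way these genes were found. For Ncan they were Dmrta2 (0.37) and Syde1 (0.45), with departures of -0.90 and -0.34 in replicate 3. Vcan had the nearest match, Nin (0.12), a centrosomal protein, followed by Trio (0.16). For Acan, 3255 genes were as near as its second named gene or nearer, and for Hapln1 12276, most of them without a name, so that no likeness is given.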

How the data were processed

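RNA from wild type ESCs and NPCs, 3 biological replicates each, was hybridized by the authors to Affymetrix mouse expression arrays. The deposited log2 values were made by the authors with RMA under an updated probe annotation (BrainCDF) that gives 1 value per Ensembl gene. RMA includes quantile normalization, which forces similar distributions on the arrays and removes any overall difference in RNA amount. The version and build of that annotation are not stated in the methods or labels.

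Of 17208 rows deposited, 64 belong to control probe sets and were not used, which left 17144 genes. No further normalization or filter was applied. Array medians ran from 5.59 to 5.76. Arrays hold no count of molecules, and their number limits the precision. The comparison used lmFit and eBayes of limma 3.58.1 (R 4.3.3) on all 6 arrays, with no covariates, Benjamini-Hochberg adjustment and the thresholds of the study. The moderated Welch test named in its methods was rebuilt as an alternative. The test was checked on simulated data. Cell type and replicate came from the sample labels. The p-values set each difference of means against the spread between these replicates, pooled over both cell types and moderated across genes.

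The deposited rows carry Ensembl identifiers, and none is listed in the RefSeq table. Names came from the study's tables, by equality of all 6 values within 0.0001, for 2004 genes. The fold changes and statistics of the authors in those tables were not used. Acan and Hapln1 were named by the member list alone, since the part of the tables used here holds mainly rises. The members and lists were chosen with earlier results of these data known. Named were all members, the 2 nearest named genes of each member, and the named genes of the lists, except 1 nearest gene that is not reported here. Identity between the member proteins was planned and not run, as no protein sequences were at hand. Figures were drawn with Python 3.11.15 and matplotlib 3.10.9.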

Additional observations from a re-analysis of the deposited data

How the results depend on the processing

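The 7 calls among the members were kept under limma with a mean-variance trend or robust variances, the rebuilt moderated Welch test, quantile normalization, median centring, no fold change threshold, and with each array left out in turn. Acan was the exception in 2 settings, since 0 members were called lower with a threshold of 2-fold, which its 1.72-fold does not reach, and 0 with the filter at the median, which left out Acan and Hapln1. The 2-fold threshold also reduced the genes called to 3592, of which 1615 were higher in NPCs and 1977 lower. Median centring moved the Hapln1 difference from 0.04 to 0.19, and it shifted the median of all genes from -0.036 to 0.12. The Acan difference was -0.78 in the main fit and -0.63 with median centring or quantile normalization, closer to the 1.5-fold threshold. With each array left out, the differences ran from 5.90 to 6.10 for Bcan, 2.91 to 3.45 for Ncan, 1.66 to 1.82 for Vcan, -0.89 to -0.71 for Acan, 2.24 to 3.02 for Cspg5, 6.75 to 7.09 for Ptprz1, 4.37 to 5.04 for Tnc and -0.01 to 0.08 for Hapln1, and the genes called from 5637 to 6199. Deviations of arrays with the same replicate number correlated at 0.0264, 0.0110 and -0.00645, which shows no likeness across genes. With 3 arrays per cell type this cannot exclude a pairing, and the labels give only the number. A fit with the number as a replicate block called 5867 genes and again 7 members. The alternative alignment of member proteins was not run.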
